A study of Homo sapiens with 9 samples.

Results

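Gene expression was compared between 2 siRNAs directed at the same target, the long noncoding RNA LINC00673, in cells labelled MDA-MB-453. The comparison covered the 11342 known genes whose FPKM averaged 1 or more across the 6 siRNA libraries, out of 17089 known genes and 19930 genes in the deposited table. FPKM is a count of fragments divided by transcript length and library depth. The cells were an established human breast cancer line transfected with si-LINC00673-1, si-LINC00673-2 or a control siRNA (si-NC), and 48 h is the time given between transfection and harvest. Each of the 3 groups had 3 libraries, labelled without a suffix, r1 and r2, and values are given below in that order. No label says whether the libraries came from separate cultures, so P values measure only the spread between these libraries. Each group stands for a single siRNA sequence in a single line, and the level of LINC00673 itself was not analysed here.

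A small interfering RNA is a short duplex from which the RNA interference machinery loads 1 strand, the guide. The guide pairs with its target along its full length and directs cleavage, but pairing of its seed, the bases near its 5′ end, can be enough to lower other transcripts. For this reason studies commonly use several siRNAs to 1 target, since genes that respond to the target should move with each of them, while sequence-dependent effects differ between them. Transfected duplexes can also engage innate immune pathways, among them the interferon response.

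The siRNA strands listed by the study are shown because their sequence is the designed difference between the groups. The labels number the groups 1 and 2 as the sequences are numbered, and this shared number is the link between them. Capitals mark the seed (bases 2 to 8 from the 5′ end).
si-LINC00673-1 guide strand: aGAAACCUcugauuccacctt
si-LINC00673-1 passenger strand: gGUGGAAUcagagguuucutt
si-LINC00673-2 guide strand: uUAUUAUUugagacagggucu
si-LINC00673-2 passenger strand: aGACCCUGucucaaauaauaa
The guide seed of si-LINC00673-1 held 3 G or C bases of 7 and that of si-LINC00673-2 held 0. Both strands of si-LINC00673-1 ended in a pair of T bases at the 3′ end, and neither strand of si-LINC00673-2 did.

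The identity of the cells was checked first. MDA-MB-453 is known as a luminal line, whose transcription factors include FOXA1, GATA3 and SPDEF. In all 9 libraries FOXA1 lay between 0 and 0.04 FPKM, GATA3 between 0.41 and 0.88 FPKM and SPDEF between 0.57 and 1.24 FPKM. These defining markers of the labelled line were therefore absent or near absent. General epithelial markers were abundant: KRT8 ranged from 3011 to 3773 FPKM, KRT18 from 1680 to 2509 FPKM and EPCAM from 287 to 330 FPKM. ERBB2 was present at 11.8 to 17.8 FPKM and FGFR4 at 17.9 to 33.1 FPKM. By contrast HNF4A, a nuclear receptor of liver and gut epithelium, was at 42.3 to 54.4 FPKM, and VIL1, the microvillus protein villin, at 80.7 to 119.9 FPKM. These last 2 genes were chosen after the values were seen, and the cells are called by their label below. Of 13 stromal, immune and endothelial markers, 10 stayed under 1 FPKM in every library. The others were CD68, LYZ and LUM, and the summed level of the list was 62.6 to 66.7 FPKM under si-LINC00673-1 and 70.8 to 74.4 FPKM under si-LINC00673-2, beside 45.7 to 49.3 FPKM under si-NC. The part of this gap in the results below was not tested.

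The depth of each library, read from the spacing of its lowest FPKM, was 24400000 to 25700000 fragments with si-LINC00673-1, 23700000 to 25000000 fragments with si-LINC00673-2 and 25800000 to 27600000 fragments with si-NC. Across genes, which are not independent replicates, libraries of the same siRNA correlated with r between 0.9945 and 0.996, and libraries of different siRNAs with r between 0.9875 and 0.9901.

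A gene was called where its fold change was at least 1.3, which is 0.38 on the log2(FPKM + 1) scale, and its limma P, adjusted by Benjamini and Hochberg's method, was 0.05 or less. Of the 11342 known genes, 790 (6.97%) were called. With si-LINC00673-2, 195 of them (1.72%) were higher than with si-LINC00673-1 and 595 (5.25%) were lower. The direction of this split depended on the scaling of the libraries. The median difference of all known genes was -0.084 as deposited, and after each library was divided by its median ratio it was 0.0068. After that scaling 641 genes (5.65%) were called, of which 382 (3.37%) were higher and 259 (2.28%) lower, so that the share of calls in the lower direction moved from 75.3% to 40.4%. Each of the 195 genes called higher stayed called, and 259 of the 595 called lower did. The rises were larger than the falls: the largest fold was 6.5 among genes called higher and 2.26 among those called lower, and 15 genes rose but 4 fell at least 2-fold. By adjusted P alone, without the fold limit, 5264 known genes passed, 1167 higher and 4097 lower. Counts of list members by unadjusted P below therefore stand against a background at least this large. The count of all known genes at that looser limit is not given. In 6351 known genes (56.0%) the 3 libraries of one siRNA lay entirely on 1 side of the 3 of the other. Among the called genes this held for 780 of 790 (98.7%). Of 1441 predicted genes fitted together with the known genes, 143 (9.92%) were called, 77 (5.34%) higher and 66 (4.58%) lower.

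**Figure D1:**
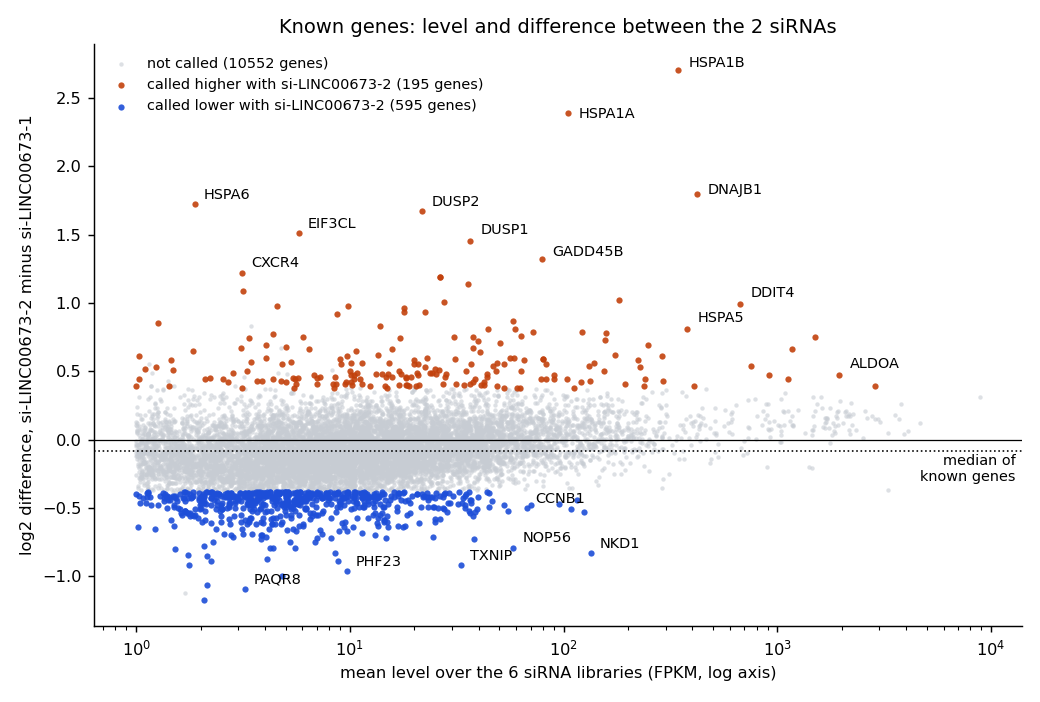
Each dot is 1 of 11342 known genes, placed by its mean FPKM over the 6 siRNA libraries (log axis) and by its log2 difference (si-LINC00673-2 minus si-LINC00673-1) on the log2(FPKM + 1) scale. The 195 genes called higher include abundant stress genes such as HSPA1B and DNAJB1, whereas the 595 called lower lie mostly below 100 FPKM, and the dotted line marks the median of -0.084.

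Among known genes, heat-shock genes held the largest differences between the siRNAs. Heat-shock proteins are chaperones that bind unfolded proteins, and their inducible members are switched on by heat-shock factor 1 when unfolded protein accumulates. HSPA1B, which encodes the inducible form of HSP70, was at 110.71, 87.88 and 74.44 FPKM under si-LINC00673-1 and at 553.48, 639.15 and 579.71 FPKM under si-LINC00673-2. With si-NC it was at 24.37, 23.94 and 25.08 FPKM, so every si-LINC00673-2 library lay above every other library. The log2 difference between the siRNAs was 2.70 (SE 0.115, limma adjusted P = 6.1e-07). HSPA1A, which encodes the same protein, was at 36.38, 29.91 and 32.52 FPKM under si-LINC00673-1 and at 175.85, 181.49 and 172.14 FPKM under si-LINC00673-2. Because the reads of these near-identical genes may be split, their FPKM were also summed. The sum leaves out predicted genes on alternative sequences of chromosome 6. One of these was at 19.06, 11.16 and 7.44 FPKM under si-LINC00673-1 and at 74.15, 93.95 and 90.42 FPKM under si-LINC00673-2. Whether such genes take further reads of HSPA1A and HSPA1B was not tested. The sum of HSPA1A and HSPA1B was 124 ± 20.8 FPKM (SD, n = 3) with si-LINC00673-1 and 767 ± 47.6 FPKM (SD, n = 3) with si-LINC00673-2. This is a ratio of 6.19 (two-sided exact permutation P = 0.1, the smallest that 3 libraries against 3 allow). In a culture sampled as a whole, more cells with the RNA and more RNA per cell cannot be told apart.

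The partners of HSP70 followed. DNAJB1, the stress-inducible HSP40 that hands substrates to HSP70, had 192.45, 181.37 and 184.50 FPKM under si-LINC00673-1 and 695.72, 639.64 and 621.57 FPKM under si-LINC00673-2 (log2 difference 1.80, SE 0.0419, limma adjusted P = 2.3e-08). HSPA6, an HSP70 gene that is nearly silent without stress, had 0.40, 0.35 and 0.28 FPKM under si-LINC00673-1 and 3.47, 3.34 and 3.43 FPKM under si-LINC00673-2. In si-NC libraries HSPA6 was at 0.15, 0.10 and 0.16 FPKM. HSPA6 passed the minimum mean of 1 FPKM only through its si-LINC00673-2 libraries. A call in the other direction was therefore hardly open to it, and its call adds no separate support. HSPA8, the constitutive cytosolic HSP70 and the most abundant member of the list, rose from 908 ± 4.13 FPKM (SD, n = 3) to 1434 ± 56.4 FPKM (SD, n = 3), a log2 difference of 0.66 (limma adjusted P = 1.2e-06). Of the 45 fitted members of the heat-shock list (49 in the table), 11 were called, HSPA6 among them. Each of these was higher with si-LINC00673-2 (24.4%, beside 1.72% of all known genes). The others were HSPH1, DNAJB4, ZFAND2A, DNAJB2, DNAJA4 and HSPB11, with log2 differences between 0.38 and 0.79. The remaining 34 were not called, and the list median was 0.079 beside -0.084 for all known genes. HSP90AB1, HSPD1 and HSPA9, chaperones of the cytosol and mitochondria that were not called and were named after their values were seen, had log2 differences of 0.075, 0.17 and -0.23. No member of the list was called lower by limma. At an unadjusted P of at most 0.05, 6 members lay below 0 and 21 above 0, without a count of all known genes at that limit.

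Heat-shock factor binds inverted repeats of a short unit. The pattern of 3 units, in which GAA and TTC alternate with NN between them, was looked for on both strands in promoters, taken as 250 bases before to 50 bases after each RefSeq start site (GRCh38.p14). It was found in 172 of 35116 promoters (0.49%) and, among the 11 called heat-shock genes, in HSPA6 and HSPA8. These windows are printed because they are where the pattern lies in genes that rose, with the pattern in capitals.
HSPA6, chr1:161524462-161524482, plus strand: aaggTTCGCGAAAGTTCgcgg
HSPA8, chr11:123062350-123062370, minus strand: gcttGAAAGTTCCAGAAcgct
HSPA8, chr11:123062175-123062195, minus strand: ccccTTCTGGAAGGTTCtaag
The pattern of 2 units, GAANNTTC or TTCNNGAA, which the longer pattern contains, was present in 8 of the 11 genes, HSPA1A, HSPA1B and DNAJB1 among them, and in 16.2% of all genes with a promoter (13.5% of promoters). A match is a description of the letters and not evidence of binding.

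Genes of the unfolded protein response also separated the siRNAs. This response raises the folding capacity of the endoplasmic reticulum (ER), and its ATF4 branch raises DDIT3 and PPP1R15A. HSPA5 encodes BiP, the main ER chaperone, and was at 282.65, 266.78 and 268.52 FPKM under si-LINC00673-1 and at 487.89, 476.95 and 475.38 FPKM under si-LINC00673-2. The si-NC libraries lay between 162.88 and 165.10 FPKM, below all 6 others. Its log2 difference between the siRNAs was 0.81 (SE 0.0278, limma adjusted P = 2.5e-07). ATF3, a stress-induced transcription factor, differed by 0.66, PPP1R15A, which restores translation after stress, by 0.59 and DDIT3, the transcription factor CHOP, by 0.56. Of 29 fitted members (31 in the table), 7 were called, all higher with si-LINC00673-2 (24.1%, beside 1.72% of all known genes). The list median was 0.077, beside -0.084 for all known genes. The most abundant member, the ER chaperone HSP90B1, stayed within the fold limit at 0.18 (95% interval 0.11 to 0.25). Sensors and transducers such as ERN1, EIF2AK3 and XBP1 were not called, with log2 differences of -0.19, -0.20 and -0.019.

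The ER stress element, in which CCAAT and CCACG are separated by any 9 bases, on either strand, occurred in 27 of 35116 promoters (0.0769%) and in 2 of the 7 called ER genes. It is shown in capitals for HSPA5 and for CALR, which encodes the calcium-binding chaperone calreticulin and where it reads on the opposite strand.
HSPA5, chr9:125241387-125241413, minus strand: ttcaCCAATCGGCGGCCTCCACGacgg
CALR, chr19:12938380-12938406, plus strand: cacgCGTGGTCGACCATCATTGGtcgg
In the called heat-shock genes this element was found in 0 of 11 promoters, and the heat-shock pattern of 2 units in 0 of the 7 called ER genes. The absence of a match says only that these letters are not in the window.

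**Figure D2:**
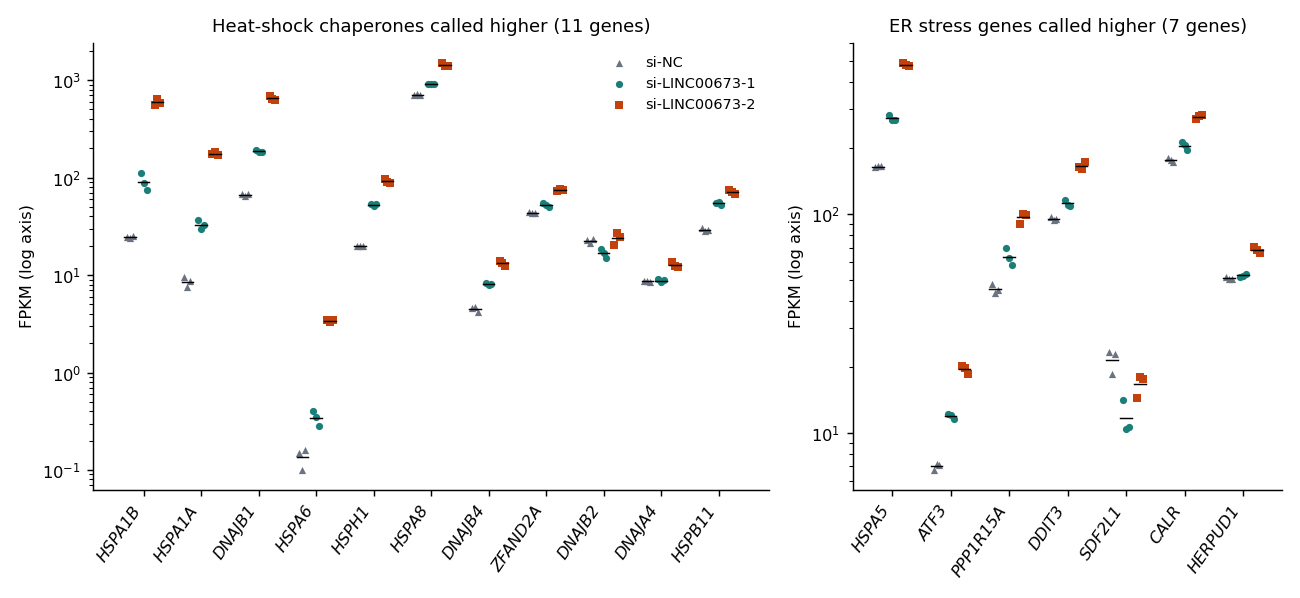
FPKM (log axis) of the 11 heat-shock and 7 ER stress genes called higher with si-LINC00673-2, with 1 point per library, 3 libraries per group and a bar at the group mean. HSPA1B lies between 553 and 639 FPKM under si-LINC00673-2, between 74.4 and 110.7 FPKM under si-LINC00673-1 and near 24 FPKM under si-NC.

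Disposal of unfolded protein was represented by the proteasome, the complex that degrades tagged proteins. None of 31 proteasome subunits was called by limma, and their median was 0.0058. At an unadjusted P of at most 0.05, 9 subunits lay above 0 and 5 below 0, without a count of all known genes at that limit. PSMA7, the most abundant subunit, differed by 0.30, and after median-ratio scaling by 0.41, past the limit.

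Immediate early genes were next. They are transcribed within minutes of a growth or stress signal and encode AP-1 transcription factors and proteins that end the signal. Of 25 fitted members (27 in the table), 14 were called, each higher with si-LINC00673-2 (56.0%, beside 1.72% of all known genes). The median difference was 0.41, beside -0.084 for all known genes. FOS was at 22.48, 21.84 and 21.51 FPKM under si-LINC00673-1 and at 52.46, 47.60 and 48.23 FPKM under si-LINC00673-2 (log2 difference 1.14, SE 0.0418, limma adjusted P = 2.5e-07). JUN, its partner in AP-1, was at 129.85, 121.03 and 108.64 FPKM under si-LINC00673-1 and at 225.25, 264.18 and 244.09 FPKM under si-LINC00673-2, and at 56.27 to 61.71 FPKM under si-NC. For both genes every si-LINC00673-2 library exceeded every other library. ZFP36, which encodes an RNA-binding protein that destabilizes cytokine mRNAs, differed by 0.79, and BHLHE40, the most abundant member, by 0.43. The EGR genes, classical targets of growth factor signaling, were named after their values were seen, and none was called. EGR1 was at 74.9 to 79.42 FPKM under si-LINC00673-1 and at 90.36 to 98.12 FPKM under si-LINC00673-2, without overlap. Its difference of 0.26 was within the fold limit but past the adjusted limit (limma adjusted P = 8.3e-04). EGR2 differed by -0.079 (limma adjusted P = 0.37) and EGR3 by -0.13 (limma adjusted P = 0.019).

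Of 9 dual-specificity phosphatase genes in the MAPK feedback list, which switch off MAP kinases, 3 were called, each higher with si-LINC00673-2. DUSP2, a nuclear phosphatase of ERK and p38, was at 10.43, 9.77 and 9.45 FPKM under si-LINC00673-1 and at 35.71, 34.66 and 30.76 FPKM under si-LINC00673-2. With si-NC it was at 7.93 to 9.65 FPKM, a range that overlapped si-LINC00673-1 and lay below every si-LINC00673-2 library (log2 difference between the siRNAs 1.67, SE 0.0731, limma adjusted P = 7.5e-07). DUSP1, which inactivates p38 and JNK, was at 19.70, 19.17 and 18.01 FPKM under si-LINC00673-1 and at 57.98, 52.70 and 50.50 FPKM under si-LINC00673-2, and DUSP5, which inactivates ERK, differed by 0.59. These 3 were the called members of 17 MAPK feedback genes (17.6%, beside 1.72% of all known genes called higher). The median of the 17 was -0.13, beside -0.084 for all known genes. The other phosphatase genes were not called, with differences from -0.23 for DUSP4 to 0.32 for DUSP10, and DUSP1 also belongs to the immediate early list. PHLDA1, the most abundant of the 17, was lower with si-LINC00673-2 by 0.33 on the log2 scale but within the fold limit. GADD45B, a stress sensor upstream of p38, was at 48.98, 44.34 and 40.95 FPKM under si-LINC00673-1 and at 106.75, 120.86 and 111.39 FPKM under si-LINC00673-2 (log2 difference 1.32). CXCR4, a chemokine receptor, was weakly expressed and differed by 1.22, from 1.49 ± 0.217 FPKM (SD, n = 3) to 4.78 ± 0.304 FPKM (SD, n = 3).

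Hypoxia-inducible genes were higher with si-LINC00673-2 as well. These genes are targets of the hypoxia-inducible factors, which adapt cells to low oxygen, and several are also raised by other stresses. Of 21 fitted members (23 in the table), 8 were called, each higher (38.1%, beside 1.72% of all known genes), with a median of 0.32. After median-ratio scaling 13 were called. ADM, which encodes the vasodilator adrenomedullin, was at 19.05, 18.70 and 16.41 FPKM under si-LINC00673-1, at 39.08, 37.64 and 35.48 FPKM under si-LINC00673-2 and at 4.69 to 5.54 FPKM under si-NC. DDIT4, an inhibitor of mTORC1, was at 483.21, 451.65 and 406.00 FPKM under si-LINC00673-1 and at 830.71, 949.07 and 882.47 FPKM under si-LINC00673-2. The control level of DDIT4, 534.11 to 587.26 FPKM, lay between the siRNAs. ANGPTL4, a secreted regulator of lipoprotein lipase, differed by 0.83 and ANKRD37 by 0.78. CA9, which encodes the tumor carbonic anhydrase and was named after its value was seen, differed by 0.31 and was not called.

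Glycolysis, which hypoxia-inducible factor also controls, moved with them. Of the 20 fitted genes, 5 were called higher and 19 lay above 0, with a median difference of 0.28. After median-ratio scaling 10 were called. PFKFB3, whose product makes the activator of phosphofructokinase, was at 44.11, 44.47 and 40.07 FPKM under si-LINC00673-1 and at 73.66, 76.19 and 77.59 FPKM under si-LINC00673-2 (log2 difference 0.81, SE 0.0464, limma adjusted P = 3.8e-06). HK2, the inducible hexokinase, differed by 0.56. ALDOA, the muscle-type aldolase, was at 1603.90 to 1664.50 FPKM under si-LINC00673-1 and at 2238.29 to 2277.40 FPKM under si-LINC00673-2, groups that did not overlap (log2 difference 0.47). TPI1, the isomerase of triose phosphates, was listed at 5.14 to 8.09 and 12.56 to 13.57 FPKM, low for an enzyme of this pathway, and its value is uncertain where reads fall on its near-identical copies. GAPDH, often used as a reference gene, was at 7947 ± 145 FPKM (SD, n = 3) and 9835 ± 146 FPKM (SD, n = 3). Its difference of 0.31 was within the fold limit but past the adjusted limit (limma adjusted P = 3.8e-05), and after median-ratio scaling it was 0.41 and called.

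None of the 75 nuclear-encoded respiratory chain genes was called by limma, although 35 lay above 0 and 5 below 0 at an unadjusted P of at most 0.05. By adjusted P alone 1167 of all 11342 known genes were higher and 4097 lower. The median of the list was 0.11. ATP5B, the catalytic subunit of ATP synthase and the most abundant of them, differed by 0.25 (95% interval 0.19 to 0.30). The median of this list was -0.038 after a correction for transcript length, so its direction depended on that setting.

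**Figure D3:**
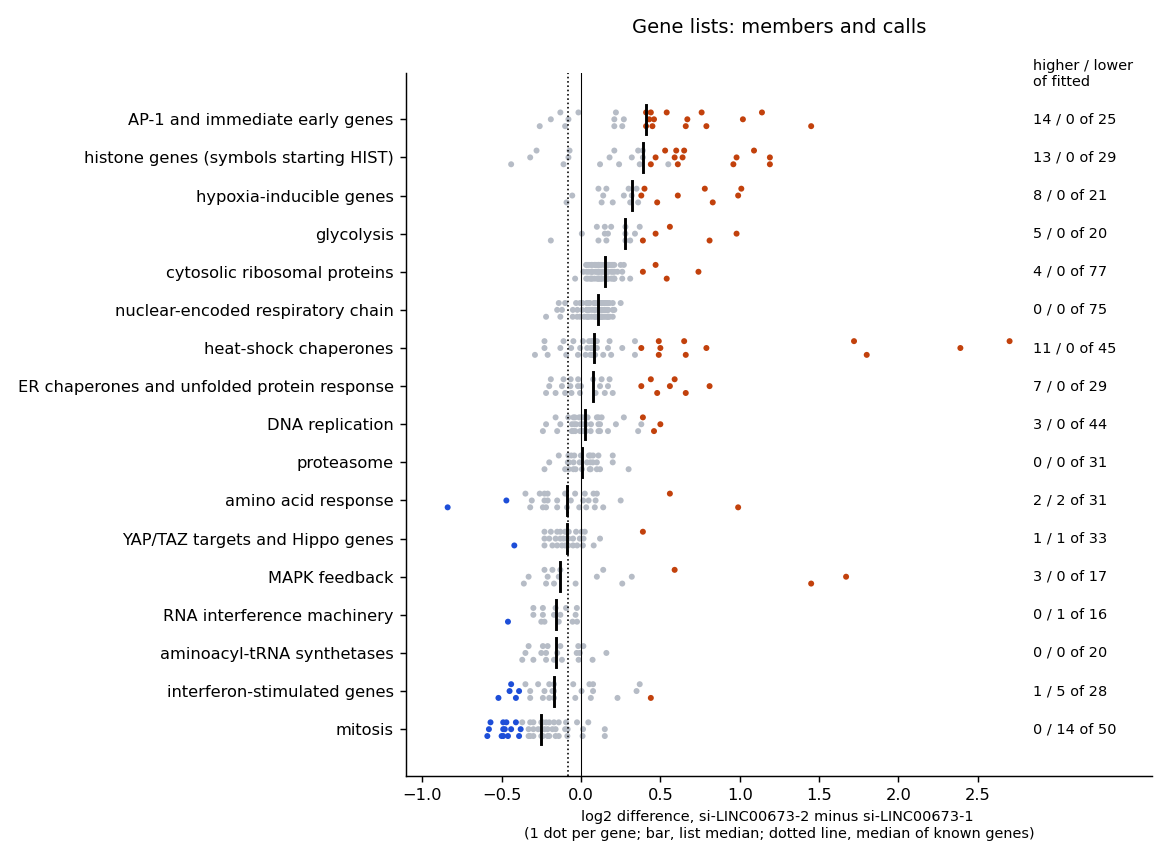
Log2 difference (si-LINC00673-2 minus si-LINC00673-1) of every fitted member of 17 gene lists, with 1 dot per gene, called members in colour and a bar at the list median. The numbers at the right give the members called higher and lower of those fitted: 14 of 25 immediate early genes were higher and 14 of 50 mitotic genes were lower.

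Mitotic genes were lower with si-LINC00673-2 where they were called. The list holds cyclins, kinases and spindle and chromosome proteins that are expressed as cells enter division. Of 50 fitted members (51 in the table), 14 were called, each lower with si-LINC00673-2 (28.0%, beside 5.25% of all known genes). The median was -0.25, beside -0.084 for all known genes. After median-ratio scaling 8 were called, all lower, and the median was -0.15. AURKA, the kinase that matures the spindle poles, was at 29.52, 30.46 and 30.55 FPKM under si-LINC00673-1 and at 20.27, 19.84 and 19.49 FPKM under si-LINC00673-2 (log2 difference -0.58, SE 0.0331, limma adjusted P = 3.8e-06). KIF20A, a kinesin of cytokinesis, was at 17.7 ± 0.715 FPKM (SD, n = 3) and 11.4 ± 0.37 FPKM (SD, n = 3). Its si-NC libraries, at 17.49 to 18.32 FPKM, overlapped those of si-LINC00673-1, which ranged from 17.19 to 18.50 FPKM. CENPF, a kinetochore protein, differed by -0.57 and CCNB1, the cyclin that drives entry into mitosis, by -0.50. CCNB1 was at 76.59 to 80.91 FPKM under si-LINC00673-1, 52.79 to 57.04 FPKM under si-LINC00673-2 and 68.88 to 72.22 FPKM under si-NC. UBE2C, the ubiquitin-conjugating enzyme that ends mitosis and the most abundant member, differed by -0.17, within the fold limit.

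DNA replication genes did not fall with the mitotic genes. Of 44 fitted members, 3 were called, each higher (6.82%, beside 1.72% of all known genes), and the median was 0.023. MCM2, a subunit of the replicative helicase, was at 28.96, 28.82 and 28.33 FPKM under si-LINC00673-1 and at 40.47, 41.57 and 40.89 FPKM under si-LINC00673-2 (log2 difference 0.50). The si-NC libraries lay at 28.49 to 29.70 FPKM, at the level of si-LINC00673-1. E2F1, the transcription factor that drives entry into S phase, differed by 0.46 and CDT1, which licenses origins, by 0.39, although CDT1 fell short of the fold limit when si-LINC00673-1 r2, si-LINC00673-2 r1 or si-LINC00673-2 r2 was left out (0.35 to 0.38) and after a correction for GC content (0.32). PCNA, the sliding clamp and the most abundant member, differed by -0.13.

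Histone genes were picked by their symbols after their values were seen. They were called higher in 13 of 29 fitted cases (44.8%, beside 1.72% of all known genes), with a median of 0.39. That median was 0.65 with 0.1 FPKM added, 0.59 at a minimum of 5 FPKM, 0.11 with no minimum, 0.26 after the correction for length and 0.52 without si-LINC00673-1 r2. Histones package DNA, and most of their genes are transcribed in S phase. HIST2H2AA3 and HIST2H2AA4, which encode histone H2A and are identical copies with identical values in the table, summed to 31.3 ± 0.659 FPKM (SD, n = 3) with si-LINC00673-1 and 74 ± 2.93 FPKM (SD, n = 3) with si-LINC00673-2 (ratio 2.37, two-sided exact permutation P = 0.1). HIST1H2AE differed by 1.09 and HIST2H2BF by 0.98. HIST1H1C, a linker histone and the most abundant of the 29, was at 31.3 ± 0.718 FPKM (SD, n = 3) and 49.5 ± 0.638 FPKM (SD, n = 3). With a minimum of 5 FPKM, 6 histone genes were called, and after a correction for transcript length 8 were called higher and 1 lower.

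**Figure D4:**
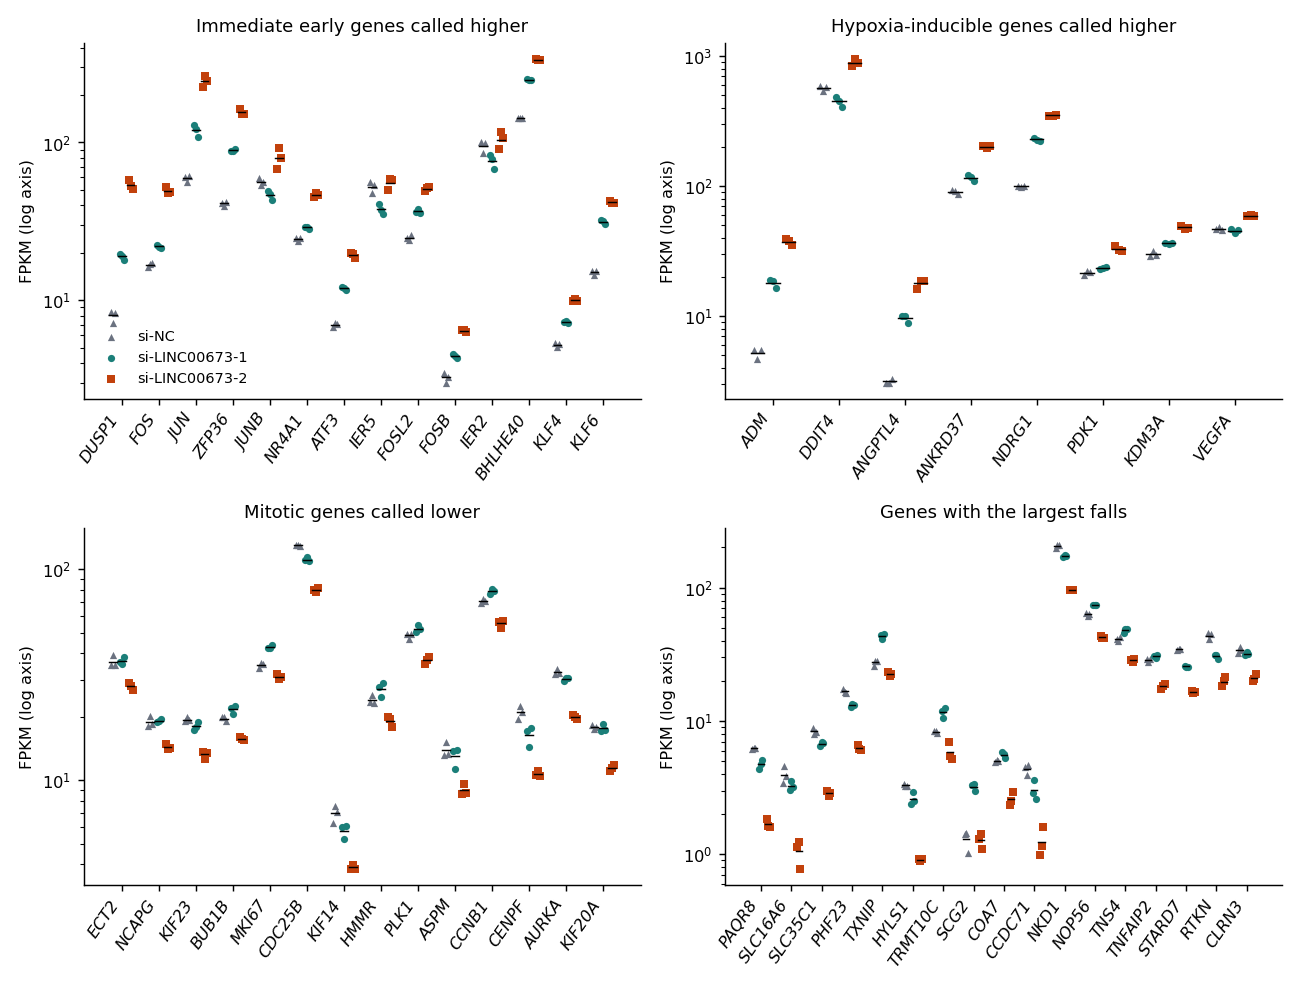
FPKM (log axis) of 14 immediate early and 8 hypoxia-inducible genes called higher, 14 mitotic genes called lower, and 17 genes that fell, chosen as the largest falls over all genes or at 20 FPKM or more, with 1 point per library and a bar at the mean of each group of 3. In the lower panels the si-LINC00673-2 libraries lie below those of si-LINC00673-1 for every gene, and for TXNIP and CCNB1 the si-NC libraries lie between the siRNAs.

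The falls named here are the 10 largest and those that ranked highest at 20 FPKM or more. PAQR8, a membrane progestin receptor, was at 4.36, 4.79 and 5.07 FPKM under si-LINC00673-1 and at 1.84, 1.64 and 1.59 FPKM under si-LINC00673-2 (log2 difference -1.09, SE 0.0583, limma adjusted P = 2.4e-06). SLC16A6, a monocarboxylate transporter family member, fell by 1.06 on the log2 scale and SLC35C1, the Golgi transporter of GDP-fucose, by 1.0. PHF23, a PHD finger protein, was at 13.1 ± 0.418 FPKM (SD, n = 3) with si-LINC00673-1 and 6.27 ± 0.274 FPKM (SD, n = 3) with si-LINC00673-2. HYLS1, a centriole protein, differed by -0.92 and CCDC71 by -0.85. SCG2, a granin of secretory vesicles, was at 2.97 to 3.34 FPKM under si-LINC00673-1 and at 1.10 to 1.43 FPKM under si-LINC00673-2, a range that overlapped its si-NC libraries at 1.03 to 1.44 FPKM.

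Among abundant genes TXNIP fell furthest. TXNIP encodes the thioredoxin-interacting protein, which restrains glucose uptake, and was at 44.36, 41.48 and 44.75 FPKM under si-LINC00673-1 and at 23.23, 21.65 and 22.63 FPKM under si-LINC00673-2. Its control level was 25.87 to 28.35 FPKM, so the siRNAs lay on opposite sides of it. NKD1, an inhibitor and target of Wnt signaling, was at 168.21, 175.12 and 172.44 FPKM under si-LINC00673-1 and at 95.61, 95.68 and 96.58 FPKM under si-LINC00673-2 (log2 difference -0.83, SE 0.0298, limma adjusted P = 2.5e-07). NOP56, a core protein of the box C/D particles that methylate ribosomal RNA, was at 74.35, 73.62 and 73.90 FPKM and at 42.98, 41.98 and 42.13 FPKM. The other genes named by the same rule were TNS4, a tensin of focal adhesions (-0.73), TNFAIP2 (-0.71), STARD7, a mitochondrial phosphatidylcholine carrier (-0.61), RTKN (-0.60) and CLRN3 (-0.58). Among the 10 largest falls were also TRMT10C, a subunit of mitochondrial RNase P (-0.89), and COA7, a cytochrome c oxidase assembly factor (-0.87).

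One of the largest differences was seen in a gene with a near copy. EIF3CL is a near-identical copy of EIF3C, a subunit of translation initiation factor 3. It was listed at 0.97, 1.39 and 6.61 FPKM under si-LINC00673-1 and at 10.61, 6.95 and 8.06 FPKM under si-LINC00673-2 (log2 difference 1.51, SE 0.525, limma adjusted P = 0.04). The sum of both genes was 226 ± 2.61 FPKM (SD, n = 3) and 220 ± 1.12 FPKM (SD, n = 3), a ratio of 0.972. The call was lost when any library except si-LINC00673-1 r2 was left out, with differences of 1.14 to 1.64.

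Translation genes moved little. Of 77 cytosolic ribosomal protein genes, 76 lay above 0 with a median of 0.15, and 4 were called higher (5.19%, beside 1.72% of all known genes). RPL39 was at 569.25 to 639.51 FPKM under si-LINC00673-1 and at 831.37 to 931.09 FPKM under si-LINC00673-2 (log2 difference 0.54), and RPS28, RPS29 and RPL28 differed by 0.74, 0.47 and 0.39. RPL41, the most abundant, differed by 0.064 (95% interval -0.028 to 0.16). Ribosomal protein genes have many processed copies in the genome, so the assignment of their reads is uncertain, and their transcripts are short. After a correction for transcript length the list median was -0.0045, and RPL39 differed by 0.31, within the limit. Of 20 aminoacyl-tRNA synthetases none was called by limma, while 13 lay below 0 and 1 above 0 at an unadjusted P of at most 0.05, with a median of -0.16. Over all 11342 known genes the median was -0.084. By adjusted P alone, a stricter limit than that of the synthetase counts, 4097 known genes were lower and 1167 higher. KARS, the lysyl-tRNA synthetase and the most abundant, differed by 0.015.

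The amino acid response list, targets of ATF4, held calls in both directions. Of 31 fitted genes (34 in the table), 2 were called higher (6.45%) and 2 lower (6.45%), beside 1.72% and 5.25% of all known genes. The list median was -0.088 as deposited, near the -0.084 of all known genes, and 0.009 after scaling. The genes called higher were DDIT4 and DDIT3, which also belong to the lists above. CHAC1, which degrades glutathione, was at 2.52, 2.34 and 2.73 FPKM under si-LINC00673-1, at 0.86, 0.97 and 1.08 FPKM under si-LINC00673-2 and at 11.47 to 12.04 FPKM under si-NC. PSAT1, an enzyme of serine synthesis, was at 37.2 ± 2.61 FPKM (SD, n = 3) and 26.6 ± 2.18 FPKM (SD, n = 3), a difference of -0.47 that became -0.37 after scaling and fell short of the limit.

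Interferon-stimulated genes were examined because double-stranded RNA can induce them. Of 28 fitted members (43 in the table), 5 were called lower with si-LINC00673-2 (17.9%) and 1 higher (3.57%), and the median was -0.17. Over all known genes 5.25% were called lower and 1.72% higher, with a median of -0.084. IFIT5, an RNA-binding antiviral protein, was at 2.06, 2.14 and 2.33 FPKM under si-LINC00673-1 and at 1.11, 1.35 and 1.20 FPKM under si-LINC00673-2. STAT2, the transcription factor of type I interferon signaling, was at 11.27 to 11.58 FPKM and 8.05 to 8.13 FPKM, a difference of -0.45 that became -0.36 after median-ratio scaling. PARP9 differed by -0.44. IRF7, the master regulator of type I interferon genes, was the member called higher, at 9.38 ± 1.06 FPKM (SD, n = 3) and 13 ± 1.25 FPKM (SD, n = 3), and its si-NC level was 12.58 to 15.91 FPKM. The call on IRF7 was lost when si-LINC00673-1 r2 (0.35) or si-LINC00673-2 r1 (0.36) was left out, and after the correction for GC content (0.35). IFITM2, the most abundant member, differed by 0.0034 (95% interval -0.11 to 0.12).

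Genes of the RNA interference machinery itself were examined next. All 16 fitted members had negative differences, from -0.46 to -0.025 with a median of -0.16 beside -0.084 for all known genes. Of them 1 was called lower (6.25%, beside 5.25% of all known genes), and after median-ratio scaling the list median was -0.069. DGCR8, the partner of DROSHA in microRNA processing, was at 6.08, 5.41 and 5.89 FPKM under si-LINC00673-1 and at 3.66, 4.01 and 4.16 FPKM under si-LINC00673-2. After median-ratio scaling its difference was -0.37 and it was not called. ADAR, the RNA-editing enzyme and the most abundant member, differed by -0.14.

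The genes that the study measured in the Hippo pathway were close between the siRNAs. MARK4, a microtubule affinity regulating kinase, was at 7.26, 7.10 and 6.54 FPKM under si-LINC00673-1, at 6.17, 6.64 and 6.82 FPKM under si-LINC00673-2 and at 9.48 to 9.88 FPKM under si-NC. The libraries of the siRNAs overlapped, and the log2 difference was -0.079 (95% interval -0.19 to 0.032, limma adjusted P = 0.22). WWTR1, which encodes the coactivator TAZ, differed by -0.077 (95% interval -0.17 to 0.014, limma adjusted P = 0.15). YAP1 was at 39.62 to 41.34 FPKM under si-LINC00673-1 and at 33.86 to 37.34 FPKM under si-LINC00673-2, without overlap. Its difference of -0.19 (limma adjusted P = 0.0057) was within the fold limit, and its si-NC libraries lay at 41.26 to 44.67 FPKM. Over all known genes 1.72% were called higher and 5.25% lower, with a median of -0.084. Of 33 fitted YAP/TAZ targets and Hippo genes (40 in the table), 1 was called higher and 1 lower (3.03% each), with a median of -0.09. These were GADD45A, a stress-inducible regulator of growth arrest (0.39), and FJX1 (-0.42), each of which fell short of the limit under some settings.

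Members of the 19 other lists, among them cholesterol synthesis, lysosome, mitochondrial ribosome, p53 targets and NRF2 targets, comprised 407 fitted genes. Of these 12 were called higher (2.95%) and 7 lower (1.72%), beside 1.72% and 5.25% of all known genes. The median was -0.031, which became 0.065 after scaling. Zinc finger genes, picked by their symbols after their values were seen, were lower with si-LINC00673-2 in 265 of 308 fitted cases. Of them 28 were called, each lower (9.09%, beside 5.25% of all known genes), with a median of -0.19 beside -0.084. In the lowest quintile of mean FPKM 8.81% of known genes were called lower, with a median of -0.14. The part of expression level in the zinc finger counts was not tested. After median-ratio scaling 4 zinc finger genes were called higher and 12 lower. ZNF398 (-0.61), ZNF202 (-0.57), ZNF888 (-0.54) and ZNF564 (-0.54) differed most, all with a mean under 3 FPKM. ZNF395, the most abundant, differed in the other direction, by 0.33.

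In the pathway annotation deposited with the table, 283 pathways had at least 20 fitted members, and their medians lay close to 0. The highest were oxidative phosphorylation and the pentose phosphate pathway (0.061 each), Parkinson's disease (0.051), cardiac muscle contraction (0.047) and Alzheimer's disease (0.038). The lowest were retinol metabolism (-0.16), Staphylococcus aureus infection (-0.14), GPI-anchor biosynthesis, sphingolipid metabolism and thyroid hormone signaling (-0.13 each).

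The differences followed transcript length, expression level and GC content. By quintiles of transcript length, from short to long, the median difference was 0.028, -0.062, -0.11, -0.12 and -0.14, and the share of genes called higher went from 3.87% to 0.309%. By quintiles of mean FPKM, from low to high, it was -0.14, -0.13, -0.10, -0.059 and 0.013, and the share called lower went from 8.81% to 1.5%. By quintiles of transcript GC content, from low to high, it was -0.13, -0.11, -0.081, -0.061 and -0.025. These properties move with the split between rises and falls above, and their part in it was not tested. After the correction for length the heat-shock list had 9 calls and a median of 0.073, the ER list 5 and 0.057, and the immediate early list 14 and 0.41. After that for GC content they had 10 calls and a median of 0.10, 7 and 0.048, and 14 and 0.40.

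**Figure D5:**
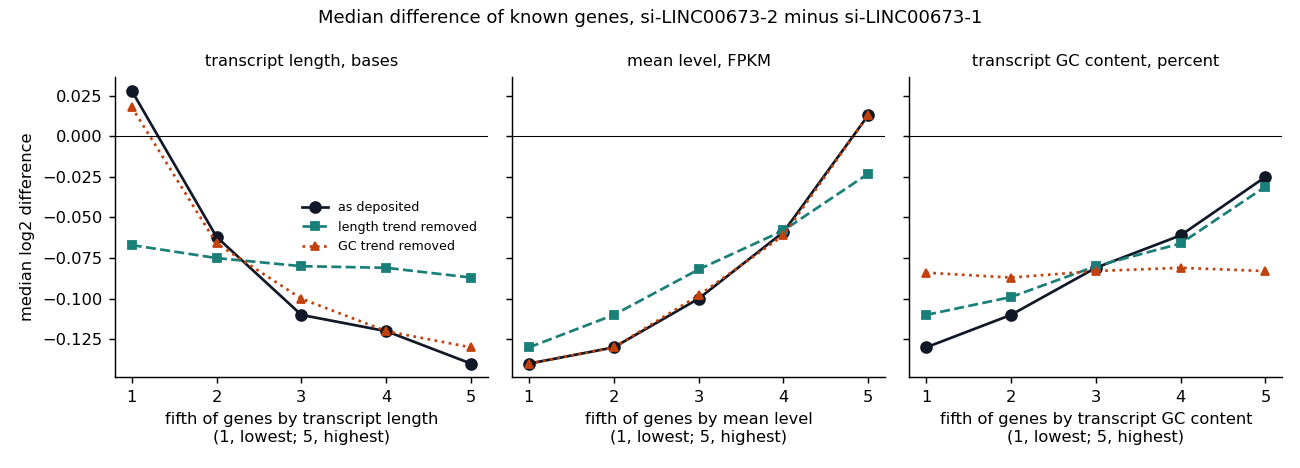
Median log2 difference (si-LINC00673-2 minus si-LINC00673-1) of known genes by quintiles of transcript length, mean FPKM and transcript GC content, as deposited and after the trend with length or GC content was removed. As deposited the medians go from 0.028 in the shortest quintile to -0.14 in the longest, and from -0.14 in the lowest quintile of FPKM to 0.013 in the highest.

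Matches to the siRNA seeds were counted in 3′ UTRs of GENCODE 29 transcripts, which were found for 11212 of the 11342 genes. The guide seed of si-LINC00673-2, UAUUAUU, pairs with AATAATA, which lay in 2161 3′ UTRs. Of these genes 7.08% were called lower (95% Wilson interval 6.07% to 8.24%) and their median difference was -0.13. Among the 9051 genes without this match 4.82% were called lower (4.39% to 5.28%) and the median was -0.073. Longer 3′ UTRs hold more matches by length alone, so the shares were also read within tertiles of 3′ UTR length. From short to long they were 6.25% with and 3.13% without a match, 9.03% and 5.57%, and 6.55% and 6.39%. The 6.25% rests on 12 called genes of 192 (95% Wilson interval 3.61% to 10.6%). Over all lengths, matches of 6 and 8 bases to this guide gave 6.63% and 6.79% called lower, beside 4.49% and 5.07% without such a match. These shares were not split by 3′ UTR length. For the si-LINC00673-2 passenger site, CAGGGTC, the shares were 6.19% with and 5.13% without a match. By tertiles of 3′ UTR length, from short to long, they were 3.33% and 3.29%, 5.17% and 6.11%, and 6.87% and 6.32%. In the lowest quintile of transcript GC content 6.58% were called lower, and the part of base composition was not tested. The site of the si-LINC00673-1 guide, AGGTTTC, lay in 1311 3′ UTRs, with 1.83% of the genes called higher with si-LINC00673-2 beside 1.7% of those without the site. By the same tertiles, from short to long, the shares called higher were 5.95% with and 2.46% without a match, 4.25% and 1.66%, and 0.651% and 0.746%. The first of these rests on 5 called genes of 84 with a match. The intervals cover counting error across genes only, and these counts carry no test.

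A long stretch shared with other transcripts was a further difference between the sequences. Of the si-LINC00673-2 target, at least 14 contiguous bases were found in transcripts of 287 fitted known genes, compared with 1 fitted known gene for the si-LINC00673-1 target. Of the 287 genes 15 (5.23%) were called lower and 1 higher, and their median was -0.13. Over all known genes the share called lower was 5.25%, close to that of the 287. The longest match among fitted known genes was in LSM3, a splicing protein, over 20 bases.
LSM3, shared with the si-LINC00673-2 target: agaccctgtctcaaataata
LSM3 was at 82.47, 85.44 and 83.77 FPKM under si-LINC00673-1 and at 90.21, 90.31 and 95.43 FPKM under si-LINC00673-2, a difference of 0.13 toward the higher side. The other genes with at least 18 shared bases were APOPT1 (0.14), MGST3 (0.15), SYNE2 (-0.041), ING5 (-0.16) and PLEKHG2 (-0.29), and none of the 6 was called by limma. At an unadjusted P of at most 0.05, APOPT1, LSM3 and MGST3 were higher and ING5 and PLEKHG2 lower.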

How the data were processed

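The authors deposited 1 table with the FPKM of each of the 9 libraries, rounded to 2 decimals. The submitters' processing notes name Bowtie2 and GRCh37.p13, and the counting tool is not given in the sources used here. The table also holds the authors' log2 ratios between pooled groups with P values and Q values, which were not used. In it 4 lines hold no values. No read counts are given, so no count model was fitted.

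Groups were taken from the labels. Log2(FPKM + 1) of genes that averaged 1 FPKM or more in the siRNA libraries (12783, of which 1441 were predicted genes) was fitted with limma 3.58.1 in R 4.3.3 (lmFit, eBayes with a trend, condition only, all 9 libraries), and P values were adjusted over all of them. Adding 1 FPKM understates the change of weakly expressed genes. The fit was tested on simulated data before use. The members, lists and tests were chosen with earlier results of these data known, so no list was tested as a set. Some items are not reported here.

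Named genes were the 10 largest rises and falls among called genes with non-overlapping libraries, the 8 largest in each direction at 20 FPKM or more, up to 4 called members and the most abundant member of each list, MARK4, YAP1, WWTR1, and the 5 highest and lowest pathways. Any other is said to be named after its value was seen, or is given with a list, a sequence match or the marker check. Depth was estimated from the spacing of low FPKM values and checked on simulated libraries. Replicate labels repeat between groups, but deviations of same-labelled libraries correlated at -0.169, -0.0506 and -0.133, so the labels were not taken as pairs. Gene features came from GENCODE 29 transcripts by NCBI Gene ID, and promoters from RefSeq (GRCh38.p14). File coordinates are on GRCh37 and were not mixed with these. Summaries used pandas 2.3.3 and scipy 1.17.1 under Python 3.11.15, and figures matplotlib 3.10.9.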

Additional observations from a re-analysis of the deposited data

Results flagged for a closer look

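In 9 named genes that were called, the libraries of the siRNAs lay on opposite sides of all 3 si-NC libraries. The limma contrast tests only the difference between the siRNAs, not the position of either against si-NC. For si-LINC00673-1 against si-NC the difference was 0.077 in TNFAIP2 (limma adjusted P = 0.13) and 0.13 in COA7 (limma adjusted P = 0.1). In the others that limma adjusted P was 0.0037 or less. Named genes were chosen partly for large differences, and the share of all known genes with this pattern was not counted. With si-LINC00673-2 the genes that lay below si-NC, while si-LINC00673-1 lay above it, were TXNIP (log2 difference between the siRNAs -0.92), TRMT10C (-0.89), COA7 (-0.87), NOP56 (-0.79), TNS4 (-0.73), TNFAIP2 (-0.71) and CCNB1 (-0.50). The genes in the opposite order were DDIT4 (0.99) and RPS28 (0.74). The value of RPS28 is uncertain because of its near-identical copies.

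Predicted genes were left out of the comparisons of known genes. Of 1441 fitted with the rest, 143 (9.92%) were called, 77 higher and 66 lower with si-LINC00673-2. Of the called ones 77 lie on sequences outside the assembled chromosomes, 48 of them higher, and whether these are further copies of known genes was not tested.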

How the results depend on the processing

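Without any fold limit 5264 known genes were called (1167 higher, 4097 lower), and with a fold of at least 2 there were 19 (15 higher, 4 lower). With 0.1 FPKM in place of 1 FPKM added before the logarithm 1298 were called (1064 lower), and with a mean of at least 5 FPKM 471 (307 lower). Median-ratio scaling gave 382 higher and 259 lower. Leaving out 1 library gave 732 to 894 calls, 172 to 259 higher and 557 to 645 lower.

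Median-ratio scaling changed the calls in hypoxia-inducible genes to 13, glycolysis to 10, mitosis to 8, DNA replication to 5, YAP/TAZ targets and Hippo genes to 1, RNA interference machinery to 0 and zinc finger genes to 16. It turned the median of the amino acid response to 0.009 and that of the other lists to 0.065. Adding 0.1 FPKM gave 5 calls in MAPK feedback, 10 in interferon-stimulated genes and 79 in zinc finger genes. The minimum of 5 FPKM left 2 in interferon-stimulated genes, 1 in YAP/TAZ targets, 0 in RNA interference machinery, 6 in histone genes and 3 in zinc finger genes. The correction for length left 1 call in YAP/TAZ targets and turned the ribosomal protein median to -0.0045. Leaving out 1 library gave 1 to 2 calls in YAP/TAZ targets, with 1 without si-LINC00673-1 r2, si-LINC00673-2 unsuffixed or si-LINC00673-2 r1. RPL28 fell short of the limit without si-LINC00673-2 r2 (0.36). The histone and zinc finger lists, the long siRNA matches and the gut markers were chosen after seeing the data. Where no construction of the setting shows it, the cause was not tested.

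Same-labelled libraries of the groups did not deviate together, so the labels give only a number. A fit with the replicate block called 784 known genes, 191 higher and 593 lower. The absence of read counts limits the precision that can be stated for weakly expressed genes.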

Other observations

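In the gene ontology terms deposited with the table, ranked by their median after the data were seen, nucleosome genes lay among the highest with si-LINC00673-2. Of 32 fitted members 7 were called, each higher, with a median of 0.17. Genes that modify RNA lay among the lowest. RNA methylation had 46 fitted members, of which 9 were called, each lower, with a median of -0.21, and tRNA methylation had 21, of which 3 were called, each lower. Mitochondrial RNA metabolism had 33 members, of which 4 were called, each lower, with a median of -0.22. The spindle midzone, where the cell divides, had 25 members, of which 6 were called, each lower, with a median of -0.22. Over all known genes the median was -0.084, 1.72% were called higher and 5.25% lower. Members of these terms overlap with each other and with the histone and mitotic lists.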
